A study of Homo sapiens with 18 samples.

Results

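The PTBP, RBFOX, MBNL, CELF and QKI proteins bind RNA and set which exons are kept in nerve, muscle and other lineages, and each of their own transcripts is also alternatively spliced. Here 10 of these genes were examined in the neuroblastoma line SHEP.tet21n: PTBP1, PTBP2, PTBP3, RBFOX2, MBNL1, MBNL2, MBNL3, CELF1, CELF2 and QKI. Their members are the 209 introns, in 42 clusters, that share a splice site with an annotated exon boundary of one of these genes, of 233650 introns in 51819 clusters measured.

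SHEP.tet21n carries a MYCN cDNA that doxycycline (Dox) switches off, so Dox-treated cells (2 μg/mL, renewed every 72 hours) are MYCN- and vehicle-treated (DMSO) cells are MYCN+. Cells of either state received a control siRNA (SNRPD3+) or siRNA #1 or #2 against SNRPD3 (SNRPD3-), which encodes a core protein of the spliceosomal snRNPs. The 6 groups had 3 libraries each, 18 in all, and MYCN-/SNRPD3+ is the wildtype. All groups come from the same engineered line, whose MYCN is a transgene, and the p-values measure the spread between these libraries. The study describes its replicates as biological and independent, while the labels do not say whether they were separate cultures. The measure, PSI, is the fraction of the reads across a cluster of overlapping introns that removed a given intron. It compares introns with each other and gives no expression level, so neither the line's markers nor the knockdown could be checked here. The number of reads behind a PSI is unknown, and no interval is given for a single value.

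PTBP1 represses exons through pyrimidine-rich sequence and is replaced in neurons by PTBP2, after PTBP1 stops causing PTBP2 exon 10 to be skipped. MBNL proteins promote the adult splicing pattern of muscle and brain and compete with CELF proteins at many exons, while RBFOX2 and QKI act through short motifs beside the exons they regulate. Many alternative exons of these genes alter the location or activity of the protein, and others shift the reading frame and send the transcript to nonsense-mediated decay (NMD).

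The exons below are those on which the following values turn. They are printed 5′ to 3′ on the transcribed strand of hg38, with 12 intron bases before and 10 after, and the capitals mark the exon.
MBNL1 36-base exon 7, chr3:152455530-152455587, plus strand: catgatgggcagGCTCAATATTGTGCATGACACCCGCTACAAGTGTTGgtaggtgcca
MBNL1 95-base exon 8, chr3:152456255-152456371, plus strand: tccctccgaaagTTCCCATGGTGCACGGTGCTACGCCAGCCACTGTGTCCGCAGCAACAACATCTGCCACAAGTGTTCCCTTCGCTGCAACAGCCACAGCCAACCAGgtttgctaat
MBNL1 54-base exon, chr3:152446692-152446767, plus strand: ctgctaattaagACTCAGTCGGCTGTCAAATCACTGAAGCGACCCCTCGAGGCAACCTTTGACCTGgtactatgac
MBNL2 54-base exon 6, chr13:97356784-97356859, plus strand: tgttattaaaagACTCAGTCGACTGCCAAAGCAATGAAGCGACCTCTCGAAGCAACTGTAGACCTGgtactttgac
PTBP1 34-base exon 11, chr19:807857-807912, plus strand: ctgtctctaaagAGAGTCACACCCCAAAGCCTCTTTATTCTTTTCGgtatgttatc
PTBP2 34-base exon 10, chr1:96806407-96806462, plus strand: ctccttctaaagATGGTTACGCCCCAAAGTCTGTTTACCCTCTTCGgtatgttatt
PTBP2 78-base exon 13, chr1:96813017-96813116, plus strand: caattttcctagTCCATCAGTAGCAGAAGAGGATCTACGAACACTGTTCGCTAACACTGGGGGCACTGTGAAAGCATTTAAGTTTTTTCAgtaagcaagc
RBFOX2 40-base exon 11, chr22:35756095-35756156, minus strand: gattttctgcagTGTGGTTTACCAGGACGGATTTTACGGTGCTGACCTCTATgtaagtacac
These exons are flanked by AG and GT. The 54-base exons of MBNL1 and MBNL2 share 45 of 54 bases (83.3%), and the 34-base exons of PTBP1 and PTBP2 share 25 of 34 (73.5%). Exon numbers follow the canonical transcript of each gene. The MBNL1 54-base exon is not in that transcript and is named here by its length.

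The genes differed widely in how well their splicing was measured. The median, over the tested introns and the 6 groups, of the SD between 3 libraries was 0.61 PSI percentage points for PTBP1, 1.01 for QKI, 1.13 for CELF1, 1.2 for MBNL1, 1.79 for MBNL2, 2.18 for PTBP2 and 2.25 for PTBP3. It was 9.48 points for RBFOX2, 13.8 for CELF2 and 15.1 for MBNL3. Exactly the same value recurred in more than 1 library for 23 of the 209 member introns (8 of PTBP2, 7 of MBNL3, 4 of RBFOX2 and 4 of CELF2), which may stand for libraries without reads there and could not be checked. CELF1 had the most rows, 46 introns in 5 clusters, followed by PTBP2 with 31, PTBP3 with 23, and RBFOX2, MBNL1 and MBNL2 with 20 each. PTBP1 and QKI had 15 each, CELF2 12 and MBNL3 7. Of all 209, 138 matched an annotated intron, 20 joined known splice sites in a way not annotated, and 51 had a single known site.

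For every intron with a mean PSI from 1 to 99%, log2 odds of PSI were compared between groups with limma across the whole table, and p was adjusted over the table by the Benjamini-Hochberg method, with a threshold of 0.05. The 146 member introns that passed the filter gave 0 calls in each of 11 comparisons, against a background that was itself low. The percentage of all 152722 introns called was 0.0543 for MYCN alone (MYCN+/SNRPD3+ against wildtype), 0.0105 and 0.0151 for knockdown without MYCN with siRNA #1 and #2, and 0.0144 and 0.0164 for knockdown with MYCN. It was 0.278 and 0.11 for MYCN+/SNRPD3- against wildtype, 0.0242 for the knockdown average (all 12 SNRPD3- libraries against the 6 SNRPD3+, MYCN states weighted equally) and 1.23 for the MYCN average (9 MYCN+ libraries against 9 MYCN-). It was 0.0177 for the interaction, in which the knockdown effect without MYCN is subtracted from that with MYCN, and 0.0183 for siRNA #1 against #2.
At an unadjusted p under 0.05, 18 of 146 member introns passed in the knockdown average (12.3%, against 7.8% of all introns) and 15 in the MYCN average (10.3%, against 11.7%). MYCN alone gave 6 (4.11%, against 6.19%). Knockdown without MYCN gave 6 with siRNA #1 (4.11%, against 4.54%) and 12 with #2 (8.22%, against 4.69%). With MYCN expressed, knockdown gave 8 (5.48%, against 7.25%) and 14 (9.59%, against 6.17%). MYCN+/SNRPD3- against wildtype gave 9 (6.16%, against 10.4%) and 15 (10.3%, against 9.19%), the interaction 4 (2.74%, against 3.98%) and the contrast of the siRNAs 4 (2.74%, against 5.38%). The shares stood above the background in the 3 simple comparisons that used siRNA #2 and in the knockdown average, and below it in the others. Introns of a cluster are fractions of the same reads, so the 146 are not independent. Of the 18 in the knockdown average, CELF1 and MBNL1 gave 5 each.

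**Figure D1:**
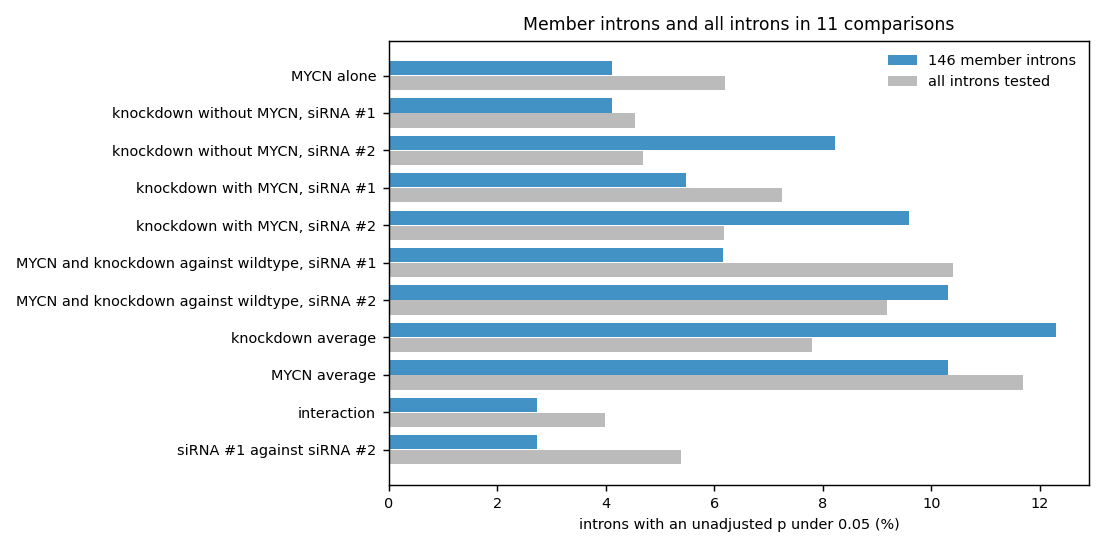
Percentage of introns with an unadjusted p under 0.05 (x axis) in each of 11 comparisons (y axis), for the 146 tested member introns (blue) and all tested introns (grey). The longest blue bar is the knockdown average, 12.3% against 7.8%.

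A cassette exon is an exon with an annotated intron that skips it and annotated introns on either side. How often it was left out is given as a skipping share, in percent: the PSI of the skipping intron is divided by the sum of itself and the average of the PSI on either side. The member genes had 29 such cassettes of 20401, and 28 were tested among 18508 (the untested was the 76-base exon 3 of PTBP2, skipped in 0.0204% ± 0.0039 (SD, n = 3) of wildtype). In limma, 0 of the 28 were called in MYCN alone (0.0324% of all cassettes), the knockdown average (0.0%), the MYCN average (4.85%) and the interaction (0.0%).
Of all cassettes, 0.0% were called in each knockdown with or without MYCN and in siRNA #1 against #2, and 3.79% (siRNA #1) and 0.946% (siRNA #2) in MYCN+/SNRPD3- against wildtype. The member cassettes gave 0 calls there too.
At an unadjusted p under 0.05, 7 of 28 passed in the knockdown average (25% against 15.3% of all cassettes), 6 in the MYCN average (21.4% against 21.3%), 4 in MYCN alone (14.3% against 8.16%) and 1 in the interaction (3.57% against 4.14%). Knockdown without MYCN gave 1 with siRNA #1 (3.57% against 5.93%) and 3 with #2 (10.7% against 5.79%), and knockdown with MYCN gave 4 (14.3% against 13.2%) and 6 (21.4% against 9.25%). MYCN+/SNRPD3- against wildtype gave 4 with siRNA #1 (14.3% against 21.0%) and 5 with #2 (17.9% against 17.1%), and siRNA #1 against #2 gave 4 (14.3% against 6.72%). The median difference in log2 odds of skipping over the 28 was 0.30 in the knockdown average, where the median of all cassettes was already 0.21, and 22 of 28 were positive. In the MYCN average the member median was -0.11 against 0.14 for all cassettes, with 11 of 28 positive. Several cassettes share an intron, so the 28 are not independent.

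**Figure D2:**
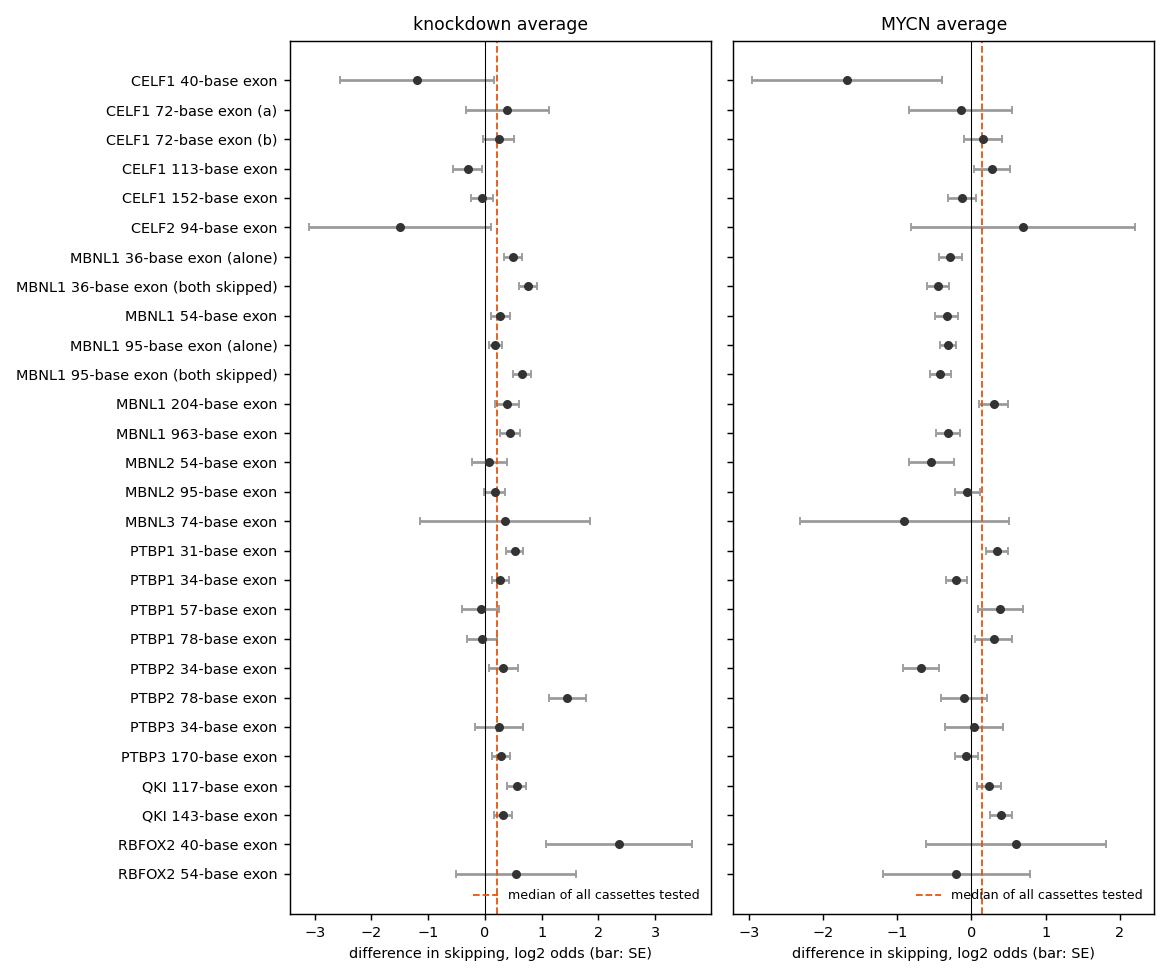
Difference in the skipping of 28 member cassettes (rows) on the log2 odds scale (x axis), with its SE, for the knockdown average (left) and the MYCN average (right); the dashed line is the median of all tested cassettes, 0.21 and 0.14. For the CELF1 72-base exon, a and b are skipped in different introns; the MBNL1 36- and 95-base exons are shown skipped alone and together, and 6 of the 7 MBNL1 rows lie left of 0 in the MYCN average.

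The joint skipping of a pair of MBNL1 exons had the smallest p of the member cassettes in the knockdown average. MBNL1 encodes the most abundant muscleblind protein of most non-neural cells, and its 36-base and 95-base exons lie next to each other in the part that encodes the C-terminal region. An intron from exon 6 to exon 9 (chr3:152447773-152459271) skips both. Its share was taken against the intron into the 36-base exon and the intron from that exon to exon 9. The latter itself skips the 95-base exon, and the intron between the 36- and 95-base exons is left out. The share is therefore not how often both exons were left out, and the PSI within the cluster is given below. This share was 18.7%, 23.9% and 20.5% in wildtype, 22.2%, 20.8% and 22.5% with siRNA #1, and 34.2%, 29.4% and 34% with siRNA #2. In MYCN+ cells it was 13.4%, 10.6% and 13.5% with control siRNA, 19.7%, 13.4% and 18.7% with siRNA #1, and 29.4%, 25.3% and 39.9% with siRNA #2. All 6 siRNA #2 libraries lay above all 6 SNRPD3+ libraries, and the siRNA #1 libraries overlapped with the control libraries.
The knockdown average was 0.75 (SE 0.159) log2 odds, 9.02 percentage points (SE 1.84), with an adjusted p of 0.0826. By siRNA, the difference from control with MYCN expressed was 1.61 (SE 0.259) with #2 (adjusted p = 0.154) and 0.51 with #1 (adjusted p = 0.421). Without MYCN it was 0.83 with #2 (adjusted p = 0.717) and 0.07 with #1 (adjusted p = 0.992). The siRNAs differed by -0.93 (SE 0.183), #1 minus #2, with an adjusted p of 0.34. So the average rested mostly on siRNA #2, and no value passed the threshold.
The MYCN average of this skipping was -0.45 (SE 0.15), adjusted p = 0.0995, and MYCN alone was -0.86 (SE 0.259), adjusted p = 0.374. Without replicate 3 of MYCN+/SNRPD3- siRNA #2, the library at 39.9%, the MYCN average was -0.54 with an adjusted p of 0.0478. The interaction was 0.61 (SE 0.317), adjusted p = 0.9995.

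**Figure D3:**
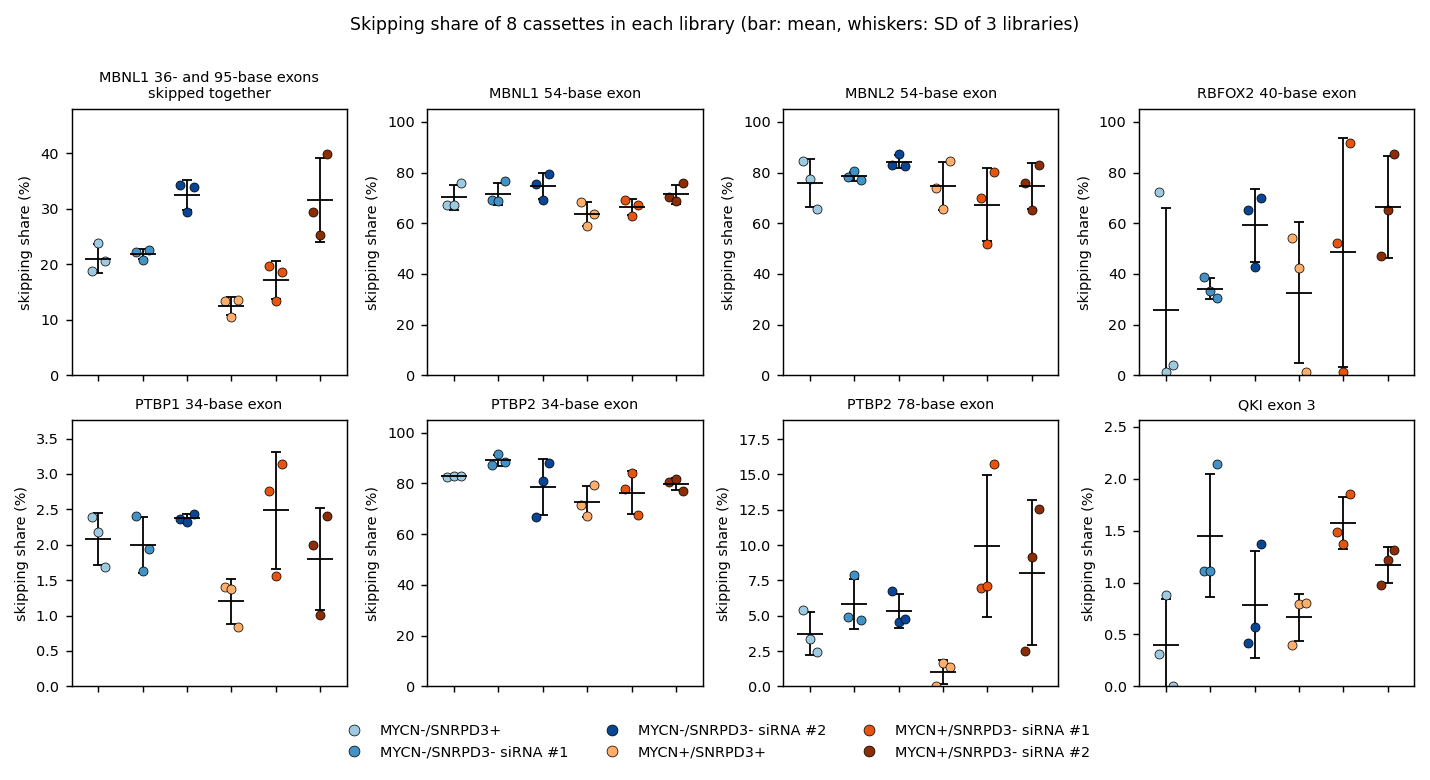
Skipping share in percent (y axes, each on its own scale from 0) of 8 member cassettes in every library; points are libraries, the bar is the mean and whiskers the SD of 3. The share for the joint skip of the MBNL1 36- and 95-base exons (top left) is highest in the siRNA #2 groups, 32.5% and 31.5%. It is taken against only the intron into the 36-base exon and the intron from that exon past the 95-base exon. The RBFOX2 40-base exon is spread over most of the axis within several groups.

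The PSI of the joint skip was 4.28%, 4.37% and 7.73% in the 3 MYCN- groups (control, #1, #2) and 2.36%, 3.26% and 7.30% in the MYCN+ groups. As an intron, its difference with siRNA #2 in MYCN+ cells was 1.34 log2 odds (SE 0.214), adjusted p = 0.108, which became 1.53 and 0.0412 without replicate 2 of MYCN+/SNRPD3- siRNA #2. Without replicate 3 of that group its MYCN average became -0.48, adjusted p = 0.0439, from -0.39 and 0.186.
The 36-base exon alone was skipped, by the intron from exon 6 to exon 8, in 27.9% ± 4.89 (SD, n = 3) of wildtype, 30.5% ± 2.27 with #1 and 31.9% ± 2.19 with #2. In MYCN+ cells the shares were 19.7% ± 2.22, 27.1% ± 7.58 and 32.6% ± 2.33. The knockdown average was 0.49 (SE 0.164), adjusted p = 0.188.
The 95-base exon alone was skipped in 18.6% ± 0.559, 19.0% ± 3.13 and 24.0% ± 1.58 of the MYCN- groups and 16% ± 0.946, 15.5% ± 1.77 and 19.4% ± 1.7 of the MYCN+ groups. Its MYCN average was -0.32 (SE 0.11), adjusted p = 0.114, and on the untransformed scale it was called, at -3.525 percentage points (SE 0.859, adjusted p = 0.0323). The joint skip was also measured against the intron that skips the 36-base exon alone and the intron leaving the 95-base exon. This gave a knockdown average of 0.65 (SE 0.155), adjusted p = 0.0978, but the joint skip is the same intron as above and no separate evidence. The 95-base exon is not a multiple of 3, so its skipping shifts the frame, whereas the 36-base exon keeps it.

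**Figure D4:**
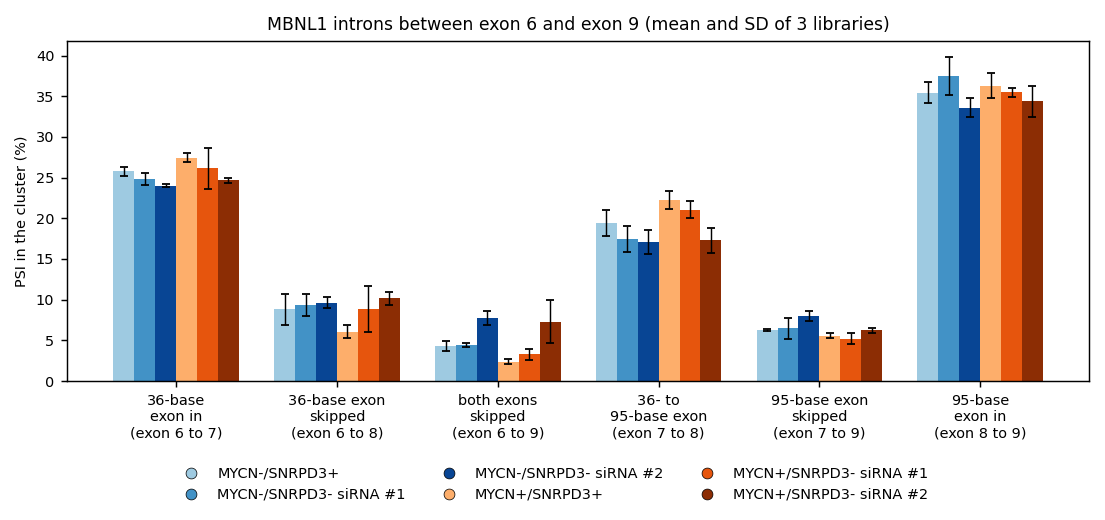
PSI in percent (y axis) of the 6 MBNL1 introns between exon 6 and exon 9 (x axis, named by what each removes or joins); bars are group means and whiskers the SD of 3 libraries. The intron that skips both exons stands at 7.73% and 7.30% with siRNA #2 and from 2.36% to 4.37% in the other groups.

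The 54-base exon of MBNL1, which carries part of a nuclear localisation signal and which MBNL proteins themselves repress, was mostly skipped. The share was 70.2% ± 5.02, 71.5% ± 4.34 and 74.6% ± 5.15 (SD, n = 3) in the MYCN- groups (control, #1, #2) and 63.5% ± 4.75, 66.4% ± 3.26 and 71.5% ± 3.71 in the MYCN+ groups. The MYCN average was -0.34 (SE 0.157), adjusted p = 0.235. The intron that leaves this exon for exon 6 had a MYCN average of 0.34 log2 odds (SE 0.0862), 4.40 percentage points, with an adjusted p of 0.0894. Its PSI was between 20.4% and 30.3% in the 9 MYCN+ libraries and between 17.5% and 24.6% in the 9 MYCN- libraries, so the ranges overlapped.
The matching 54-base exon of MBNL2 was skipped in 75.9% ± 9.57, 78.6% ± 1.74 and 84.3% ± 2.59 of the MYCN- groups and 74.8% ± 9.46, 67.3% ± 14.4 and 74.7% ± 8.96 of the MYCN+ groups. The MYCN average was -0.54 (SE 0.297), adjusted p = 0.324, and the knockdown average 0.08 (SE 0.315). The 95-base exon of MBNL2 was skipped more often than that of MBNL1, with group means from 34.5% to 47.2%, a knockdown average of 0.17 (SE 0.183) and a MYCN average of -0.06 (SE 0.172). In both genes the 54-base exon was mostly left out.
In MBNL1 the start-codon exon 2 (963 bases) was skipped in 4.52% to 8.32% of the group means, with a knockdown average of 0.45 (SE 0.175), adjusted p = 0.246, and the 204-base exon 4, in 4.91% to 8.04%, gave 0.39 (SE 0.206), adjusted p = 0.385. The MBNL2 intron from exon 6 to exon 7 had, among the introns of that gene, the smallest p of both averages, a knockdown average of -0.33 (SE 0.129), adjusted p = 0.526. MBNL3, on the X chromosome, had 7 introns with at most 14 different values, and skipping of its 74-base exon had group means from 50.0% to 99.3% with SDs up to 50.2. In MYCN+/SNRPD3- siRNA #1 against wildtype, that skipping differed by 2.15 log2 odds (SE 2.44, adjusted p = 0.67) in the main fit. With repeated values set missing, a setting added after seeing the data, it was called (6.28 log2 odds, SE 0.741, adjusted p = 0.0217).

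PTBP1 was spliced almost uniformly. Exon 11, whose 34 bases shift the frame when skipped and whose skipping is annotated only in NMD transcripts, was skipped in 2.08% ± 0.363, 2.00% ± 0.395 and 2.37% ± 0.0608 (SD, n = 3) of the MYCN- groups (control, #1, #2). In the MYCN+ groups the shares were 1.2% ± 0.319, 2.48% ± 0.823 and 1.80% ± 0.72. The knockdown average was 0.27 (SE 0.152), adjusted p = 0.42, and the MYCN average -0.20 (SE 0.144), adjusted p = 0.458.
The 78-base exon 9, which lengthens the linker between RNA-binding domains and raises repressive activity, was skipped in 2.30% to 4.02% of the group means, and the knockdown average was -0.05 (SE 0.261). The 31-base exon 2 was skipped in 1.09% ± 0.252 of wildtype and 2.91% ± 1.45 of MYCN+/SNRPD3- siRNA #2, with a knockdown average of 0.52 (SE 0.156), adjusted p = 0.157. MYCN+/SNRPD3- siRNA #1 against wildtype gave 0.80 (SE 0.2545), adjusted p = 0.0905. Without replicate 3 of MYCN+/SNRPD3- siRNA #2, a library in neither of these groups, the difference stayed at 0.80. The SE, which uses the spread of all groups, fell to 0.2029, and the exon was called (adjusted p = 0.0475).

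PTBP2 had the opposite balance at its 34-base exon. Exon 10, without which the transcript is an NMD substrate, was skipped in 82.7%, 82.8% and 83.0% of wildtype, 87.5%, 91.6% and 88.3% with siRNA #1, and 66.7%, 81.0% and 88.2% with siRNA #2. In MYCN+ cells the values were 71.5%, 67.3% and 79.3% with control siRNA, 77.8%, 84.0% and 67.4% with #1, and 80.5%, 81.7% and 77.1% with #2. The 3 wildtype libraries lay above the 3 MYCN+/SNRPD3+ libraries, but libraries of the other groups overlapped. The MYCN average was -0.68 (SE 0.242), or -7.24 percentage points, with an adjusted p of 0.122, and MYCN alone was -0.81 (SE 0.419), adjusted p = 0.661. Without replicate 1 of MYCN-/SNRPD3- siRNA #2, the lowest of its group, the MYCN average was -0.84 with an adjusted p of 0.0429.
The 78-base exon 13 of PTBP2 keeps the frame. It was skipped, to the nearer 3′ site of exon 14, in 5.43%, 3.36% and 2.42% of wildtype, 4.92%, 7.87% and 4.72% with siRNA #1, and 6.75%, 4.53% and 4.79% with #2. In MYCN+ cells it was skipped in 0.0535%, 1.64% and 1.37% with control siRNA, 6.97%, 7.07% and 15.7% with #1, and 2.48%, 9.16% and 12.5% with #2. The MYCN+ knockdown libraries all lay above their 3 controls, while the MYCN- groups overlapped. The knockdown average was 1.45 (SE 0.326), 4.91 percentage points, adjusted p = 0.0907. With MYCN it was 2.58 (SE 0.533) for #1, adjusted p = 0.12, and 2.17 for #2, adjusted p = 0.293. The interaction was 1.84 (SE 0.653), adjusted p = 0.9995.
The same exon skipped to a 3′ site 3 bases further in, a join that is not annotated, had a PSI of 0.0247%, 0.0206% and 0.0146% in wildtype. It was between 0.606% and 4.31% in the 6 MYCN- knockdown libraries and between 0.556% and 4.44% in the 6 MYCN+ knockdown libraries, with controls at 0.875%, 0.0171% and 0.0163%. All but 1 control library lay near 0, and that library fell within the knockdown range. The knockdown average was 1.34 (SE 0.303), adjusted p = 0.224.

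PTBP3 skipped a 34-base exon in 93.9% to 97.8% of the group means, with a knockdown average of 0.25 (SE 0.415). That exon lies near the 5′ end of the gene, between a first exon and exon 2 (chr9:112330441-112330474). It matches the 34-base exons of PTBP1 and PTBP2 above in length, not in position. The 170-base exon 3 of PTBP3 was skipped in 22.1% to 27.1%, with a knockdown average of 0.28 (SE 0.163), adjusted p = 0.43. The member intron nearest the threshold was an annotated alternative start of this gene, which joins another first exon to exon 2 (chr9:112297916-112332784, minus strand). Its PSI was 1.21%, 1.63% and 1.21% in wildtype, 1.14%, 2.53% and 2.07% with siRNA #1, and 0.0547%, 0.0559% and 0.0497% with #2. In MYCN+ cells it was 5.35%, 0.0401% and 2.14% with control siRNA, 3.95%, 4.55% and 2.86% with #1, and 3.62%, 6.07% and 9.81% with #2.
The 6 MYCN+ knockdown libraries lay above all MYCN- libraries, and the MYCN+ control libraries spanned both. The MYCN average was 1.28 (SE 0.296), 3.16 percentage points (SE 0.828), adjusted p = 0.0567. Without replicate 2 of MYCN+/SNRPD3+, the library at 0.0401%, it was 1.52 with an adjusted p of 0.00516. Leaving out any other single library gave no call for this intron. With all libraries kept and only introns of at least 15 different values tested, the adjusted p of the same 1.28 was 0.0498.

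QKI is an RNA-binding protein whose alternative last exons set its C-terminus and its location in the cell. The introns on either side of its exon 7 held nearly constant shares of their cluster. The intron from exon 6 to exon 7 held 34.6% to 36.6% in the group means, and that from exon 7 to exon 8 57.1% to 60.2%. Both border the same exon, so these shares do not measure the choice between last exons. An unannotated join from exon 6 straight to exon 8 was rare. Its PSI was 0.523%, 0.131% and 0.585% in wildtype, 0.861%, 1.02% and 1.72% with siRNA #1, and 0.694%, 1.28% and 1.13% with #2. In MYCN+ cells it was 1.08%, 0.729% and 0.548% with control siRNA, 1.49%, 2.06% and 3.98% with #1, and 1.58%, 0.855% and 1.24% with #2.
Every knockdown library lay above the 3 wildtype libraries, and those with #1 in MYCN+ cells lay highest on average. The MYCN+ control libraries, at up to 1.08%, lay below those with #1 in MYCN+ cells but overlapped with the other knockdown groups. MYCN+/SNRPD3- siRNA #1 against wildtype gave 1.3 log2 odds (SE 0.263), adjusted p = 0.0657, and the knockdown average 0.61 (SE 0.161), adjusted p = 0.296. The 117-base exon 3 was skipped in at most 1.57% of any group mean, with a knockdown average of 0.56 (SE 0.168), adjusted p = 0.157. The 143-base exon 2, whose skipping is annotated only in NMD transcripts, was skipped in 2.53% to 5.00%, with a MYCN average of 0.40 (SE 0.154), adjusted p = 0.153.

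RBFOX2, which binds TGCATG beside the exons it regulates, had 20 introns, but its 40-base exon varied more between replicates than between groups. Skipping was 25.9% ± 40.2, 34.3% ± 4.18 and 59.2% ± 14.4 (SD, n = 3) in the MYCN- groups (control, #1, #2) and 32.6% ± 27.7, 48.5% ± 45.3 and 66.5% ± 20.0 in the MYCN+ groups. The knockdown average of 2.37 had an SE of 1.28 and an adjusted p of 0.402. The skipping share of the 54-base exon 5 was 0.326% to 15.6% in the group means with SDs up to 18.8. It counts only the first of the paired 3′ sites of this exon, which held a median of 0.172% of the pair. The intron at the other site, 3 bases further in, is left out, so the share overstates the skipping. The intron at the first site gave a MYCN average of -1.11 (SE 0.478), adjusted p = 0.381. Its share of the pair had a median of 0.133% in the MYCN+ libraries and 4.09% in the MYCN- libraries.
CELF1 was measured more evenly. Its 152-base exon 3 was skipped in 10.0% to 13.3% of the group means, with a knockdown average of -0.05 (SE 0.196) and a MYCN average of -0.13 (SE 0.185). Its lead cassette, a 40-base exon, was skipped in 11.1% to 42.9% of the group means with SDs up to 34.6 (MYCN average -1.68, SE 1.275, adjusted p = 0.495). The CELF1 intron with the smallest p of both averages, near the 3′ end of the gene (chr11:47470555-47472191, minus strand), had a knockdown average of 0.59 (SE 0.17), adjusted p = 0.336. CELF2 is chiefly a gene of brain, heart and blood cells, and its introns had SDs up to 55.1 points. Its 94-base exon was skipped in 1.13% to 34.4% of the group means, with a knockdown average of -1.49 (SE 1.603, adjusted p = 0.701). Its intron chr10:10919999-11165486 gave a MYCN average of -2.63 (SE 0.806), adjusted p = 0.166, which was -3.245 with an adjusted p of 0.0243 without replicate 2 of MYCN+/SNRPD3- siRNA #2. That PSI ranged from 0.251% to 70.8% over the 9 MYCN+ libraries and from 19.9% to 69.4% over the 9 MYCN- libraries. Another CELF2 intron, chr10:10919999-10940417, had a PSI of 28.6%, 32.4% and 19.9% in wildtype and 0.416%, 0.406% and 0.359% in MYCN-/SNRPD3- siRNA #1. These groups did not overlap, and the difference was -4.75 (SE 1.45, adjusted p = 0.893) with the spread of all 6 groups and -4.75 (SE 0.273, adjusted p = 0.0137) with only the groups compared.

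Pairs of splice sites a few bases apart add or remove codons without skipping an exon. Of 14 such pairs within 30 bases with a mean PSI of at least 1%, 9 had both introns annotated and at least 15 different values. The sequences show 4 of them, with the bases between the sites in capitals. Within each pair these bases are kept only when the first 3′ site is used. In QKI an unannotated join uses a further 3′ site 3 bases in, which keeps the last 21 of the 24 bases. Over all libraries it held on average 34.4% of its sum with the last site.
CELF1 3-base pair, chr11:47476954-47476974, minus strand: cttgctttctaatagCAGggt
CELF1 12-base pair, chr11:47478938-47478967, minus strand: tggtgtaatgtctagCTTTATTTGCAGctc
PTBP2 15-base pair, chr1:96804770-96804802, plus strand: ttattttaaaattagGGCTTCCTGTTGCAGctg
QKI 24-base pair, chr6:163563405-163563446, plus strand: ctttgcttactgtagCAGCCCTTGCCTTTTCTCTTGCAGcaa
The stretch in capitals ends in AG in each, the mark of the second 3′ site. The first CELF1 pair was used almost evenly, with the longer exon at 44.4% to 48.0% of the pair in the 6 group means and SDs of at most 3.67. The 12-base pair stood at 60.7% to 66.5%, and the QKI pair at 89.6% to 93.7%. The PTBP2 15-base pair had the longer exon at 22.3% ± 7.03 in wildtype and 37.5% ± 5.11 in MYCN+/SNRPD3+, with the other groups at 32.7% to 42.2% and SDs up to 16.8. The shares of a pair were not themselves tested, but the introns of these pairs were among those tested with limma, and none was called. The PTBP2 intron at the first site gave 0.87 log2 odds (SE 0.403) in MYCN alone, adjusted p = 0.81. The intron at the first site of the CELF1 3-base pair gave a MYCN average of 0.109 (SE 0.0778), adjusted p = 0.676.

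The sequence around member exons was searched on the transcribed strand for 1 short motif of each family: TTCTCT (PTBP), TGCATG (RBFOX), GCTTGC (MBNL), TGTGTG (CELF) and ACTAAC (QKI), none of which contains another. Windows were the 100 intron bases before and after the exon and the exon itself, in 25 tested member exons and 16565 tested exons in all. GCTTGC stood upstream of 4 of 25 (16%), against 1.76% of all: the 34-base exon of PTBP2, the 54-base exons of MBNL1 and MBNL2 and the 95-base exon of MBNL2. TGCATG stood upstream of 3 (12% against 2.93%) and downstream of 4 (16% against 3.72%), among them the RBFOX2 40-base exon upstream and the MBNL2 54-base exon downstream. The 4 downstream include the 78- and 57-base exons of PTBP1, which end at the same base and so share the same window. TGCATG also lies inside the MBNL1 36-base exon printed above. TTCTCT was upstream of 3 (12% against 12.4%), including the 34-base exon of PTBP2 and the 34-base exon near the 5′ end of PTBP3. TGTGTG was upstream of 3 (12% against 5.73%). ACTAAC was in none of the windows. A match is a description of these letters and was not tested as a site.

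The cassettes whose pattern over the 18 libraries was most like the joint skipping of MBNL1 were, among 18324 compared, those of RAPGEF2 (18-base exon, Pearson r = 0.847), KTN1 (87-base exon, 0.845) and LAMP2 (218-base exon, 0.842). The points share libraries, and the values are descriptions only.

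A pair of further lists show what the same fit gave outside these genes. Among other tissue splicing regulators, 77 introns of 11 genes were tested, and the MYCN average called 3 (3.9%, against 1.23% of all introns): 2 of KHDRBS1 and 1 of RBM20. The knockdown average called 0 in limma, with 10 at an unadjusted p under 0.05 (13%, against 7.8% of all introns). Among 33 genes with exons known to respond to these proteins, the MYCN average called 23 of 472 introns, 13 higher and 10 lower, in 9 genes (4.87%), while the knockdown average called 0 (41 at an unadjusted p under 0.05, 8.69% against 7.8% of all introns). Of 98 cassettes in 27 of these genes, 12 were called in the MYCN average (12.2%, against 4.85% of all cassettes), 8 with more skipping and 4 with less.
Skipping of the 24-base exon of PICALM, a clathrin assembly protein, rose from 15.4%, 21.1% and 21.2% in the MYCN- groups (control, #1, #2) to 27.8%, 39.1% and 32.5% in the MYCN+ groups (log2 odds 1.03, SE 0.121, adjusted p = 0.000947).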

How the data were processed

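PSI was used for 18 libraries of total RNA in 6 groups of 3, taken from the sample labels. The authors made stranded mRNA libraries, aligned reads to hg38 with STAR 2.5.0a and ran leafcutter. The submitters' processing notes also name SAMtools 1.3.1. The deposited values are fractions per intron and library, and 0 columns were unmatched. Deposited FDR and delta PSI values of the authors' comparisons were not used. Depth is unknown, so no interval covers a single PSI.

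Introns were placed on GENCODE release 44 (the authors used 28). A log2 odds scale with an offset of 0.01 was fitted with limma 3.58.1 in R 4.3.3 (lmFit, eBayes), all groups in 1 fit, with a mean of 0.01 to 0.99, in place of leafcutter's test, which needs reads. The fit was tested on simulated data. Python 3.11.15, pandas 2.3.3 and matplotlib 3.10.9 were used. Named introns and exons are, for each gene, those with the smallest p in the knockdown or MYCN average among those with at least 15 different values, and known alternative exons. Other exons, introns and the tandem pairs were chosen after their values were seen. The members and lists were chosen with earlier results of these data known. Introns of MYCN and of SNRPD3 were not analysed here.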

Additional observations from a re-analysis of the deposited data

How the results depend on the processing

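Member introns or cassettes called were compared under other offsets (0.001, 0.05), an untransformed scale, no filter or a mean of 0.05 to 0.95, at least 15 different values, an adjusted p under 0.1, eBayes with trend and robust options, only the groups compared, the smaller flanking PSI and each library left out; setting repeated values missing was added after seeing the data. The counts of 0 were kept in 416 of 433 cases. These cases cover the 11 intron comparisons and, for cassettes, only MYCN alone, the knockdown average, the MYCN average and the interaction. Calls in the other cassette comparisons are outside that count. The MYCN average called 1 intron untransformed (from the MBNL1 54-base exon to exon 6), 1 with no filter (of MBNL1), 1 with at least 15 different values (the PTBP3 alternative start) and 2 at an adjusted p under 0.1. MYCN+/SNRPD3- siRNA #1 against wildtype called 1 intron at an adjusted p under 0.1, and knockdown without MYCN with siRNA #1 called 1, of CELF2, with only the groups compared. Cassettes called at an adjusted p under 0.1 were 3 in the knockdown average, 1 in the MYCN average (the joint skip of MBNL1) and 2 in MYCN+/SNRPD3- siRNA #1 against wildtype (the PTBP1 31-base exon, adjusted p = 0.0905, and the QKI 117-base exon, 0.06997). Untransformed, the MYCN average called 1, the MBNL1 95-base exon skipped alone. Leaving out a library gave 0 to 1 intron in knockdown with MYCN with siRNA #2 and in the MYCN average, and 0 to 2 cassettes in the MYCN average. For each intron or cassette called in this way in a comparison, only 1 library gave the call when left out, and leaving out any other did not.

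The replicate number as a block gave 1 intron in the MYCN average, the MBNL1 intron from the 54-base exon to exon 6 (adjusted p = 0.0317), and 1 cassette in the knockdown average, the joint skip of MBNL1 (adjusted p = 0.0464), and changed no other count. Labels do not say that numbers mark a shared batch. The deviations of 45 same-numbered pairs had a mean correlation of 0.00615 (range -0.0509 to 0.0638) over introns, with 0 pairs above 0.1. These correlations run over all tested introns and do not settle whether same-numbered libraries were paired, which is unknown.

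Of 1460 repeats for 51 named values, 1414 kept their direction and side of the threshold, 17 passed it and 29 changed sign, all of these in values that lay within 1 SE of 0. The PTBP2 78-base exon had a MYCN average of 0.06945 with offset 0.05 and 0.0135 (as a fraction) untransformed. The PTBP1 78-base exon had an untransformed knockdown average of 0.0006386 (as a fraction). The PTBP3 34-base exon had a MYCN average of -0.03 with offset 0.05, -0.003346 (as a fraction) untransformed and -0.06531 with the smaller flanking PSI. With 1 library left out, the MYCN average ranged from -0.2405 to 0.112 for the PTBP2 78-base exon, from -0.1375 to 0.04553 for the MBNL2 95-base exon, from -0.06287 to 1.385 for the RBFOX2 40-base exon and from -0.2029 to 0.2936 for the PTBP3 34-base exon. The knockdown average ranged from -2.374 to 0.1964 for the CELF2 94-base exon, from -0.1107 to 0.278 for the MBNL2 54-base exon and from -0.1494 to 0.0623 for the PTBP1 78-base exon. The cause was not tested.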
